A study of Ovis aries with 15 samples.

Results

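Glutathione peroxidases and selenoproteins were examined as a set of 9 genes in sheep kidney RNA-seq libraries. The genes were GPX1, GPX3, GPX4, GPX7, GPX8, SELENOP, SELENOW, SELENOK and SELENOS, taken by symbol from an expression table of 25592 genes, and all 9 were present. The rule used gene names, and the set was proposed with earlier results of these data known. Each of the 9 passed the filter on low values, which required an FPKM (fragments per kilobase of transcript, scaled to library size) of at least 1 in at least 5 of 14 libraries and left 13162 genes for testing.

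Glutathione peroxidases reduce hydrogen peroxide and lipid peroxides with electrons from glutathione, and several of them carry selenocysteine, a selenium amino acid that the ribosome inserts at a UGA codon. GPX1, GPX3, GPX4 and the 4 SELENO genes encode such selenoproteins, whereas GPX7 and GPX8 use cysteine and sit in the endoplasmic reticulum (ER). The kidney is known as the main source of plasma GPX3, made in the proximal tubule, and it takes up selenoprotein P from the blood through the receptor megalin (LRP2).

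The libraries came from the kidneys of male Dorper × Small-tailed Han sheep aged 4 months, with 5 of the 6 sheep of each group sequenced at the end of 21 days. All groups ate the same basal ration. The CON group received nothing further, the AFB1 group received 500 µg of aflatoxin B1, a mould toxin, per kg of feed dry matter. Sheep of the AFB1_CUR group received that dose together with curcumin, a plant polyphenol, at 800 mg per kg. There was no group with curcumin alone. The comparisons asked what aflatoxin changed and how the added curcumin altered it. They share groups with each other, so their results are given side by side and are not independent. Libraries held 50255295 to 68747047 counts, and the 9 genes together took 0.835% to 2.51% of them in 14 libraries.

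The remaining library, labelled AFB1 replicate 1, went against its tissue label. Its mean log2(FPKM + 1) over 20 hepatocyte genes was 10.37, against 1.57 to 2.77 in the other 14 libraries. Its score was 1.37 for 8 proximal tubule genes, where the others had 6.79 to 8.40. For 10 genes of the loop of Henle, distal tubule and collecting duct it was 0.70, where the others had 5.80 to 6.77. The tubule channel genes KCNJ1 and SCNN1G had 0 counts there. This library was therefore shown apart, the comparisons used the other 14 libraries (5 CON, 4 AFB1, 5 AFB1_CUR), and member calls that changed with it are given both ways. In the 14 libraries the tubule markers were present and no gene of those lists was at 0. Because the tissue was sampled in bulk, fewer cells of a type and less RNA per cell cannot be told apart.

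None of the 9 genes was called in any comparison, where a call needed both a p under 0.05 before adjustment and a change of more than 1.5-fold in edgeR's quasi-likelihood test. Between AFB1 and CON, 0 of 9 genes were called, against 232 of all tested genes (1.76%). Between AFB1_CUR and AFB1, 0 of 9 were called against 123 (0.935%), and between AFB1_CUR and CON, 0 of 9 against 214 (1.63%). With so few genes called in the whole table, a count of 0 among 9 genes is near the background. No tested gene reached an adjusted p under 0.05 with edgeR, while 664, 303 and 723 genes had an unadjusted p under 0.05. DESeq2 on the same counts gave 17, 3 and 1 genes at an adjusted p under 0.05, and limma on log2(FPKM + 1) gave 0. None of the 9 genes had groups without overlap, which 1.54%, 0.676% and 0.722% of the tested genes had in the same order of comparisons. The median log2 fold change of the 9 genes was 0.05 between AFB1 and CON, where that of all tested genes was 0.02. It was -0.13 between AFB1_CUR and AFB1 and -0.07 between AFB1_CUR and CON, where the medians of all tested genes were 0.00032 and -0.0029.

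**Figure D1:**
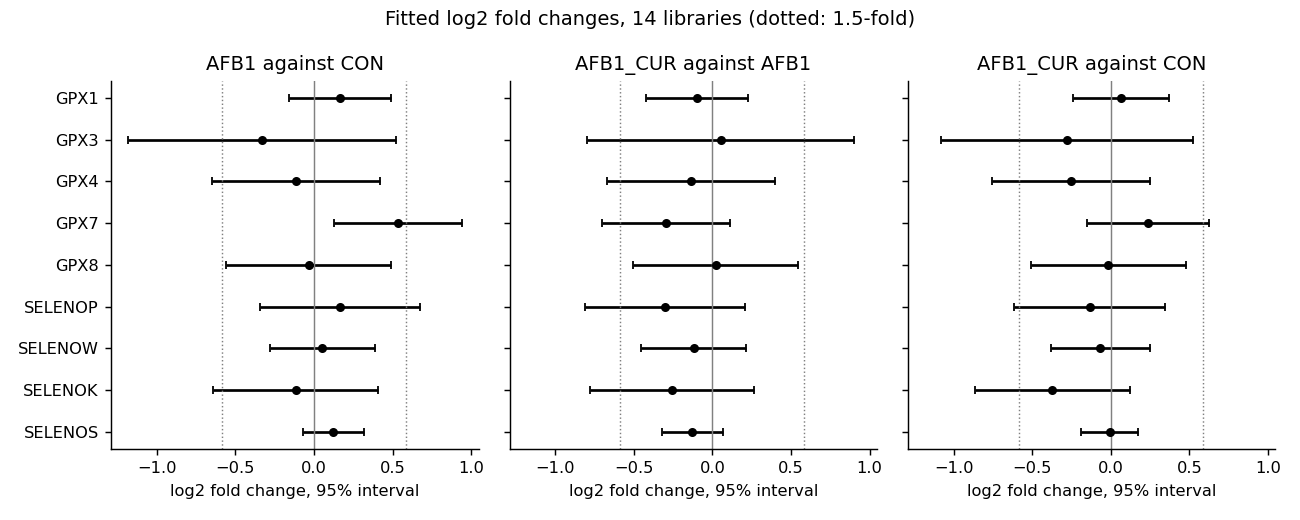
Fitted log2 fold change of each of the 9 genes (points) with its 95% interval (bars) in the comparisons of AFB1 with CON, AFB1_CUR with AFB1 and AFB1_CUR with CON, from 14 libraries. Dotted lines mark a fold change of 1.5. The interval for GPX7 between AFB1 and CON, 0.12 to 0.94, is the 1 of the 27 that does not include 0.

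The levels of the 9 genes spanned more than 3 orders of magnitude on the FPKM scale, which is per length and so can be compared between genes. GPX3 was highest, with a median of 8229 FPKM over 14 libraries, and ranked 4th to 11th among all genes of a library. GPX4 (median 430.3), SELENOP (265), GPX1 (189) and SELENOW (117) came next. SELENOS (25.4), GPX8 (12.4), GPX7 (7.54) and SELENOK (3.04) formed the lower end. Neighbouring ranges overlapped for GPX4 and SELENOP, which kept this order in 12 of 14 libraries, for SELENOP and GPX1 (11 of 14), for GPX8 and GPX7, and for GPX7 and SELENOK. The other neighbours did not overlap. GPX3 made up 88.4% to 95.8% of the summed FPKM of the 5 glutathione peroxidases, and 75.2% to 90.5% of the counts of 24 genes known to encode selenoproteins. It thus took most of the selenoprotein mRNA in each of the 14 kidney libraries.

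**Figure D2:**
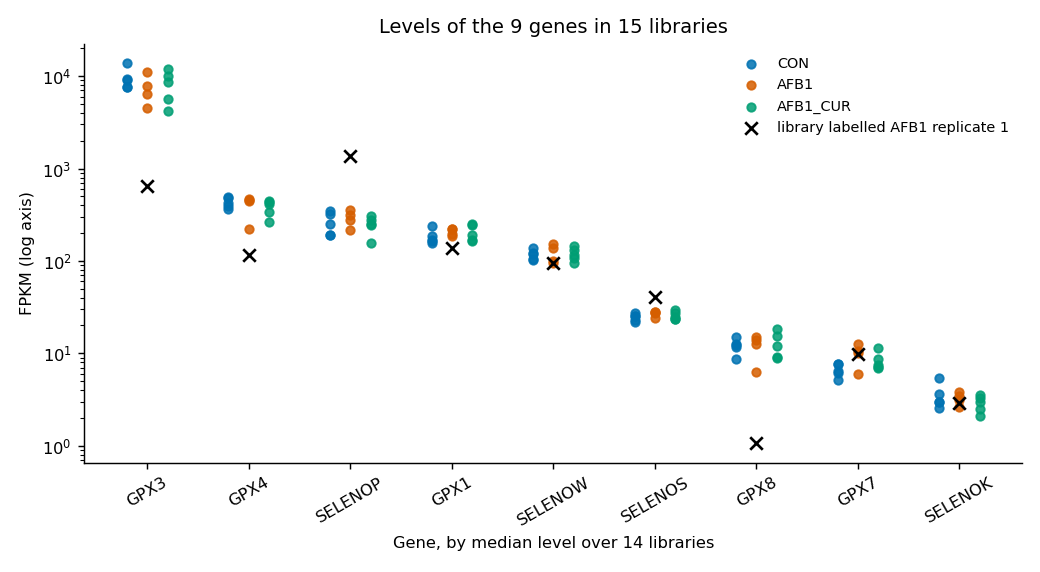
FPKM of the 9 genes on a log axis in 15 libraries, ordered by the median over 14. Dots are libraries of the CON, AFB1 and AFB1_CUR groups, and crosses are the library labelled AFB1 replicate 1, in which SELENOP stands at 1369.7 FPKM, above GPX3 at 655.

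GPX3, on chromosome 5 (60066363 to 60074517, plus strand), encodes the secreted plasma peroxidase. In CON replicates 1 to 5 its level was 9288, 7564, 7668, 13888 and 9140.5 FPKM. In AFB1 replicates 2 to 5 it was 4568, 7839, 6426 and 11084 FPKM, and in AFB1_CUR replicates 1 to 5 it was 10093, 4162, 8619, 12015 and 5677 FPKM. The groups overlapped almost fully, with the lowest values in AFB1 replicate 2 and AFB1_CUR replicate 2 and the highest in CON replicate 4. The means were 9509.7 ± 2575 FPKM in CON (SD, n = 5), 7479 ± 2751 in AFB1 (n = 4) and 8113 ± 3200 in AFB1_CUR (n = 5). The fitted log2 fold change between AFB1 and CON was -0.33 (95% interval -1.18 to 0.52), and that between AFB1_CUR and AFB1 was 0.05 (-0.80 to 0.90). GPX3 varied more between animals of a group than most genes, as its SD within groups, 0.52 on the log2(FPKM + 1) scale, was at the 89.7th percentile of the tested genes.

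GPX1 and GPX4 are the intracellular selenium peroxidases. GPX1, on chromosome 19 (50800769 to 50801894, plus strand), reduces hydrogen peroxide in the cytosol and mitochondria. Its level was 238, 166, 187, 168 and 157 FPKM in CON replicates 1 to 5, 188, 221, 219 and 196 in AFB1 replicates 2 to 5, and 163, 249, 191, 166 and 247 in AFB1_CUR replicates 1 to 5. CON replicate 1 was higher than the 4 AFB1 libraries, which lay above the other 4 CON libraries. The log2 fold change between AFB1 and CON was 0.16 (95% interval -0.16 to 0.49), and between AFB1_CUR and AFB1 -0.10 (-0.43 to 0.22).

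GPX4, on chromosome 5 (41265385 to 41267752, plus strand), reduces lipid hydroperoxides within membranes and is the known brake on ferroptosis, a cell death by lipid peroxidation. In CON replicates 1 to 5 it stood at 495, 365, 391, 422 and 486 FPKM. In AFB1 replicates 2 to 5 it stood at 221, 456, 466 and 441, and in AFB1_CUR replicates 1 to 5 at 339.5, 265, 442, 409.7 and 439. The low libraries were AFB1 replicate 2 and AFB1_CUR replicate 2, and the other 12 lay between 339.5 and 495. The log2 fold change was -0.12 between AFB1 and CON (95% interval -0.65 to 0.42) and -0.14 between AFB1_CUR and AFB1 (-0.67 to 0.40). Without these 2 libraries, a setting chosen after the data were seen, the estimate between AFB1 and CON turned to 0.11.

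GPX7 and GPX8 encode the ER peroxidases, which pass oxidizing equivalents to protein disulphide isomerases during protein folding. GPX7, on chromosome 1 (27026266 to 27033814, plus strand), was the gene of the set with the largest estimate between AFB1 and CON. Its level was 6.43, 5.16, 7.74, 7.62 and 6.16 FPKM in CON replicates 1 to 5. It was 12.5, 10.5, 10.1 and 6.04 in AFB1 replicates 2 to 5, and 7.47, 11.4, 7.05, 6.99 and 8.76 in AFB1_CUR replicates 1 to 5. Of the 4 AFB1 libraries, 3 were above every CON library and replicate 5 lay inside the CON range. The means were 6.62 ± 1.08 FPKM in CON (SD, n = 5), 9.78 ± 2.71 in AFB1 (n = 4) and 8.33 ± 1.86 in AFB1_CUR (n = 5). By edgeR's quasi-likelihood test the log2 fold change between AFB1 and CON was 0.53 (95% interval 0.12 to 0.94, unadjusted p = 0.0144, adjusted p = 0.957), past the p threshold and below the 1.5-fold threshold. It passed both thresholds without CON replicate 3 (0.59), CON replicate 4 (0.60) or AFB1 replicate 5 (0.68), and without AFB1 replicate 2 it was 0.43 with an unadjusted p of 0.0531 in edgeR. Between AFB1_CUR and AFB1 it was -0.29 (-0.70 to 0.11) and between AFB1_CUR and CON 0.24 (-0.15 to 0.62). GPX7 was counted at 422 to 871 reads per library.

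GPX8, on chromosome 16 (24143296 to 24148121, minus strand), had estimates near 0 in all comparisons. It stood at 12.5, 11.6, 15.2, 12.3 and 8.78 FPKM in CON replicates 1 to 5, at 13.8, 12.7, 15.2 and 6.20 in AFB1 replicates 2 to 5, and at 8.97, 18.3, 11.9, 9.06 and 15.5 in AFB1_CUR replicates 1 to 5. All 3 groups overlapped, with the lowest value in AFB1 replicate 5 and the highest in AFB1_CUR replicate 2. Its log2 fold changes were -0.04 (95% interval -0.56 to 0.49) between AFB1 and CON and 0.02 (-0.50 to 0.54) between AFB1_CUR and AFB1.

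**Figure D3:**
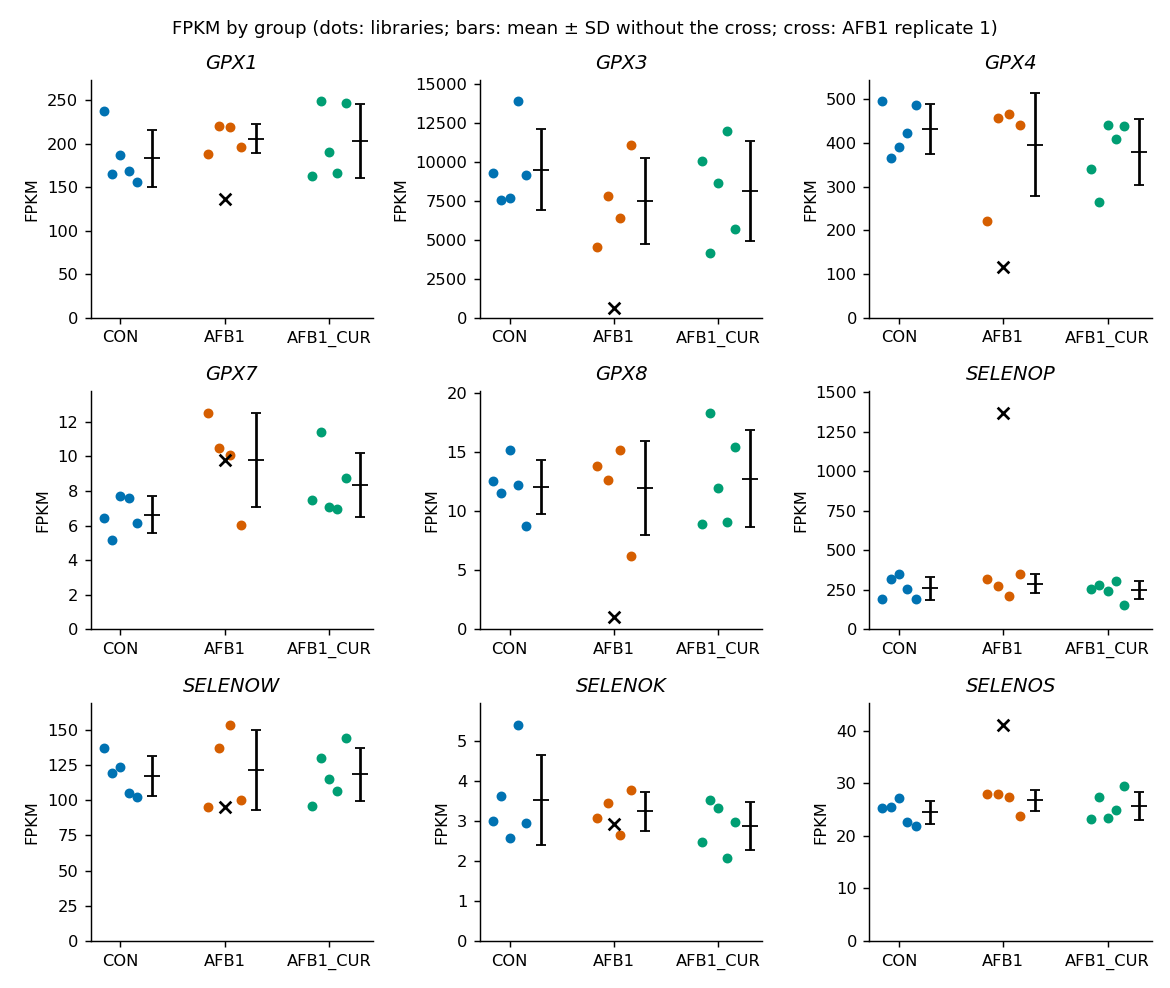
FPKM of each of the 9 genes by group, with a dot for each library and the mean ± SD (bars) of 5 CON, 4 AFB1 and 5 AFB1_CUR libraries. The cross is the library labelled AFB1 replicate 1, left out of the means, in which GPX3, GPX4 and GPX8 are low and SELENOP and SELENOS are high.

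SELENOP and SELENOW encode the selenium transport protein of plasma and a small thioredoxin-fold protein. SELENOP is on chromosome 16 (31962728 to 31972534, plus strand). Its level was 191, 320.1, 347, 252 and 189.8 FPKM in CON replicates 1 to 5, 317, 276, 214 and 353 in AFB1 replicates 2 to 5, and 253, 280.3, 242, 303 and 157 in AFB1_CUR replicates 1 to 5. The 3 groups overlapped, and the log2 fold change was 0.17 (95% interval -0.34 to 0.67) between AFB1 and CON and -0.30 (-0.81 to 0.21) between AFB1_CUR and AFB1. With the library labelled AFB1 replicate 1 added, at 1369.7 FPKM, the same fit gave 1.39 between AFB1 and CON (unadjusted p = 0.0277, edgeR) and -1.52 between AFB1_CUR and AFB1 (unadjusted p = 0.0181, edgeR). In that fit on 15 libraries SELENOP and GPX7 (0.71, unadjusted p = 0.00464, edgeR) were the 2 of 9 genes called between AFB1 and CON, where 4.84% of all genes were called. SELENOP was the 1 of 9 called between AFB1_CUR and AFB1, where 3.98% were, and 0 of 9 were called between AFB1_CUR and CON, where 0.993% were. The SELENOP calls rested wholly on the liver-like library.

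SELENOW, on chromosome 14 (54431829 to 54435844, plus strand), was at 137, 119, 123, 105 and 102 FPKM in CON replicates 1 to 5. It was at 95.4, 137, 154 and 100.3 in AFB1 replicates 2 to 5, and at 95.9, 130.1, 115, 107 and 144 in AFB1_CUR replicates 1 to 5. The AFB1 libraries lay on both sides of the CON range. The log2 fold change was 0.05 (95% interval -0.28 to 0.39) between AFB1 and CON and -0.12 (-0.45 to 0.22) between AFB1_CUR and AFB1.

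SELENOS and SELENOK are ER membrane proteins. SELENOS takes part in the export of misfolded proteins from the ER with the ATPase VCP and the derlins, and SELENOK is a cofactor of the acyltransferase ZDHHC6. SELENOS, on chromosome 18 (4621648 to 4630257, plus strand), was the steadiest of the set. Its level was 25.3, 25.4, 27.3, 22.7 and 21.9 FPKM in CON replicates 1 to 5, 28.0, 27.9, 27.3 and 23.8 in AFB1 replicates 2 to 5, and 23.2, 27.4, 23.4, 24.8 and 29.5 in AFB1_CUR replicates 1 to 5. Its SD within groups, 0.13 on the log2(FPKM + 1) scale, was at the 8.89th percentile of the tested genes. Of the 4 AFB1 libraries, 3 were above the highest CON value, and the log2 fold change was 0.12 (95% interval -0.07 to 0.31). The interval thus excluded a 1.5-fold difference in either direction, as did those of -0.32 to 0.06 between AFB1_CUR and AFB1 and of -0.19 to 0.17 between AFB1_CUR and CON.

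SELENOK stood at 2.99, 3.63, 2.58, 5.41 and 2.95 FPKM in CON replicates 1 to 5, at 3.09, 3.45, 2.65 and 3.78 in AFB1 replicates 2 to 5, and at 2.48, 3.51, 3.32, 2.08 and 2.98 in AFB1_CUR replicates 1 to 5. CON replicate 4 was the highest and the groups overlapped. The log2 fold change was -0.12 (95% interval -0.64 to 0.40) between AFB1 and CON and -0.26 (-0.78 to 0.27) between AFB1_CUR and AFB1. These values are uncertain. The row carried only 90 to 217 counts per library, and its locus on chromosome 1 (196199547 to 196200273, plus strand) spans 727 bp, while counts and FPKM together imply a length of 788 bp, which leaves no room for introns. A locus on chromosome 19 (47124925 to 47135090, minus strand), LOC121817240, is described in the table as partly selenoprotein K and stood at 1.20 to 1.73 FPKM in the 15 libraries. It carried 630 to 1044 counts per library, and its implied length was 9446 bp in a span of 10166 bp. Reads of the 2 loci may be shared, and which of them holds the SELENOK transcript was not tested.

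The other genes of the selenoprotein pathway were taken from lists chosen for their function. Of 18 further selenoprotein genes, 13 were tested and 0 were called in each of the comparisons. Their median log2 fold change between AFB1 and CON was 0.04. The largest estimates were those of DIO1, the enzyme that activates thyroid hormone, at -1.07 (95% interval -2.52 to 0.38), and of TXNRD1, the cytosolic thioredoxin reductase, at 0.23 (-0.0037 to 0.47). DIO1 varied widely within groups, from 2.93 to 19.99 FPKM among the 4 AFB1 libraries.

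Of the 9 genes for the synthesis and insertion of selenocysteine, 9 were tested and 0 were called. EEFSEC, the elongation factor that brings selenocysteine to the ribosome, had the largest estimate between AFB1 and CON. It was at 7.46 to 8.99 FPKM in the 5 CON libraries, at 5.03 to 7.12 in the 4 AFB1 libraries and at 6.94 to 8.58 in the 5 AFB1_CUR libraries. EEFSEC thus lay wholly lower in AFB1 than in CON, and 1.54% of all tested genes had no overlap between these groups. By edgeR's quasi-likelihood test its log2 fold change was -0.35 between AFB1 and CON (unadjusted p = 0.00235, adjusted p = 0.957) and 0.27 between AFB1_CUR and AFB1 (unadjusted p = 0.0127), below the 1.5-fold threshold both times and with neither passing after adjustment. It stayed between -0.40 and -0.30 when each library was left out in turn. SECISBP2L, related to the factor that reads the selenocysteine signal in the mRNA, followed at 0.24 (95% interval -0.04 to 0.53). Of the 2 receptors for selenoprotein P, LRP2 alone passed the filter, at a log2 fold change of -0.37 (-1.33 to 0.59) between AFB1 and CON. It was -0.03 without CON replicate 5, and -0.95 and called without AFB1 replicate 5 (unadjusted p = 0.0407, edgeR), and with all 15 libraries it was -0.69.

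Of 15 genes of glutathione supply and recycling, 12 were tested. ANPEP, a brush border peptidase that completes the breakdown of extracellular glutathione, was called lower in AFB1 than in CON (log2 fold change -1.03, unadjusted p = 0.0169, adjusted p = 0.957, edgeR) and lower in AFB1_CUR than in CON (-1.14, unadjusted p = 0.00622, adjusted p = 0.823, edgeR). It was at 87.1 to 218 FPKM in CON, 34.7 to 89.4 in AFB1 and 38.9 to 87.6 in AFB1_CUR. Its highest values, 218 in CON replicate 5 and 156 in CON replicate 4, stood in the CON libraries with the highest proximal tubule scores, 8.40 and 8.07 as the mean log2(FPKM + 1) of 8 marker genes. The scores of AFB1 replicates 2 to 4, at 7.01, 7.17 and 6.90, were below that of every CON library. ANPEP was at 52.4 FPKM in AFB1_CUR replicate 2, which had the lowest score of the 14 libraries (6.79). It was at 34.7 in AFB1 replicate 4 (6.90) and 41.2 in AFB1 replicate 2 (7.01), with the next lowest scores. At higher scores it was at 87.2 FPKM in AFB1 replicate 5 (8.27), 87.6 in AFB1_CUR replicate 1 (8.11) and 38.9 in AFB1_CUR replicate 4 (7.89). AFB1 replicate 3, with a score of 7.17, had 89.4 FPKM. The part of this score in the ANPEP difference was not tested. The call against CON was kept in 11 of 14 fits that left out a library for AFB1, and in 14 of 14 for AFB1_CUR. It was lost for AFB1 without CON replicate 5 (-0.76), AFB1 replicate 2 (-0.85) or AFB1 replicate 4 (-0.83). Without AFB1 replicate 2 and AFB1_CUR replicate 2 together, the first was -0.84 and no longer called (unadjusted p = 0.0603, edgeR). No other gene of this list was called, and none was called between AFB1_CUR and AFB1.

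Of 9 genes of lipid peroxidation and ferroptosis around GPX4, 8 were tested. ALOX5, a lipoxygenase of leukocytes, was called higher in AFB1_CUR than in CON (log2 fold change 1.08, unadjusted p = 0.0370, adjusted p = 0.823, edgeR). It was at 0.53 to 3.04 FPKM in AFB1_CUR and 0.25 to 0.78 in CON. No CON library thus reached the 1 FPKM of the filter on low values. ALOX5 passed that filter only through AFB1 replicates 2 and 4 and AFB1_CUR replicates 2, 3 and 5. Without AFB1_CUR replicate 2, which held the 3.04, the estimate was 0.61 with an unadjusted p of 0.171 in edgeR. The call was also lost without CON replicate 3, 4 or 5 or AFB1_CUR replicate 3, with unadjusted p-values of 0.0527 to 0.0830 in edgeR, and with limma on log2(FPKM + 1) (0.49, unadjusted p = 0.0645) or log2(FPKM + 0.1) (0.91, unadjusted p = 0.0656). Without both AFB1 replicate 2 and AFB1_CUR replicate 2 it was 0.63 (unadjusted p = 0.161, edgeR). Of 13 ER partners of GPX7, GPX8, SELENOS and SELENOK, all were tested. DERL3, a derlin that plasma cells express strongly, was called higher in AFB1 than in CON (log2 fold change 2.50, unadjusted p = 0.0321, adjusted p = 0.957, edgeR). This rested on AFB1 replicate 2, at 44.8 FPKM against 1.64 to 8.42 in AFB1 replicates 3 to 5 and 0.61 to 3.84 in CON, and without it the estimate was 0.83 (unadjusted p = 0.397, edgeR). DERL3 was also at 41.2 FPKM in AFB1_CUR replicate 2, against 1.53 to 5.37 in the other AFB1_CUR libraries, so that the difference between AFB1_CUR and AFB1 turned on which of the 2 libraries was kept. It was -0.53 in the 14 libraries (unadjusted p = 0.606, edgeR), -2.21 without AFB1_CUR replicate 2 (unadjusted p = 0.0258, edgeR), 1.13 without AFB1 replicate 2 (unadjusted p = 0.279, edgeR) and -0.54 without both (unadjusted p = 0.420, edgeR). These 2 libraries had the highest lymphocyte scores, 5.87 and 6.50, and their part in the DERL3 values was not tested. The call between AFB1 and CON was also lost without CON replicate 1, 4 or 5, with estimates of 2.26 to 2.51, and with all 15 libraries (2.22, unadjusted p = 0.0587, edgeR), the replicate block (1.24, unadjusted p = 0.102, edgeR) or limma on log2(FPKM + 1) (1.32, unadjusted p = 0.150). VCP and ZDHHC6, the partners of SELENOS and SELENOK, had log2 fold changes of 0.10 and 0.14 between AFB1 and CON and were not called.

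The levels of GPX3, GPX7, GPX8 and SELENOS moved with the level of proximal tubule markers across libraries, and those of GPX3, GPX4, GPX7, GPX8 and SELENOS with that of lymphocyte markers by at least 1 of the 2 correlation measures. This was examined after the values were seen, over 27 relations of 9 genes with 3 marker scores (the mean log2(FPKM + 1) of a marker list) in 14 libraries, with p-values adjusted over the 27 relations for each measure. With the score of 8 proximal tubule genes, GPX3 had a Pearson r of 0.79 (permutation test, p = 0.0008, adjusted p = 0.0108) and a Spearman rho of 0.81 (permutation test, p = 0.00075, adjusted p = 0.0101). GPX8 ran the other way, with r = -0.80 (permutation test, p = 0.00057, adjusted p = 0.0108) and rho = -0.82 (permutation test, p = 0.00053, adjusted p = 0.0101). So did SELENOS, with r = -0.76 (permutation test, p = 0.00244, adjusted p = 0.0165) and rho = -0.78 (permutation test, p = 0.00161, adjusted p = 0.0145). GPX7 did as well, with r = -0.72 (permutation test, p = 0.00451, adjusted p = 0.0174) and rho = -0.72 (permutation test, p = 0.00493, adjusted p = 0.0250). All tests were two-sided, each with 100000 resamples. Without the 2 libraries farthest from the median score, AFB1_CUR replicate 2 and CON replicate 5, r was 0.77 for GPX3, -0.72 for GPX8, -0.69 for SELENOS and -0.62 for GPX7. With the group means removed it was 0.77, -0.89, -0.71 and -0.67. Correlations within single groups, of 4 or 5 libraries, are not given. Among the 5 CON libraries, GPX7 stayed at 5.16 to 7.74 FPKM over scores of 7.40 to 8.40. Its lowest value was in CON replicate 2, at a score of 7.42, so a decline of GPX7 with the score was not seen in CON. In CON, SELENOS and GPX8 were highest at the lowest score (27.3 and 15.2 FPKM, replicate 3). They were lowest at the highest score (21.9 and 8.78 FPKM, replicate 5). GPX7 was at 10.1 to 12.5 FPKM in AFB1 libraries with scores of 6.90 to 7.17, and at 6.04 at 8.27. In AFB1_CUR it was at 11.4 FPKM at the lowest score, 6.79, and at 7.47 at the highest, 8.11. The labels name no batch, so no value within batches could be given.

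**Figure D4:**
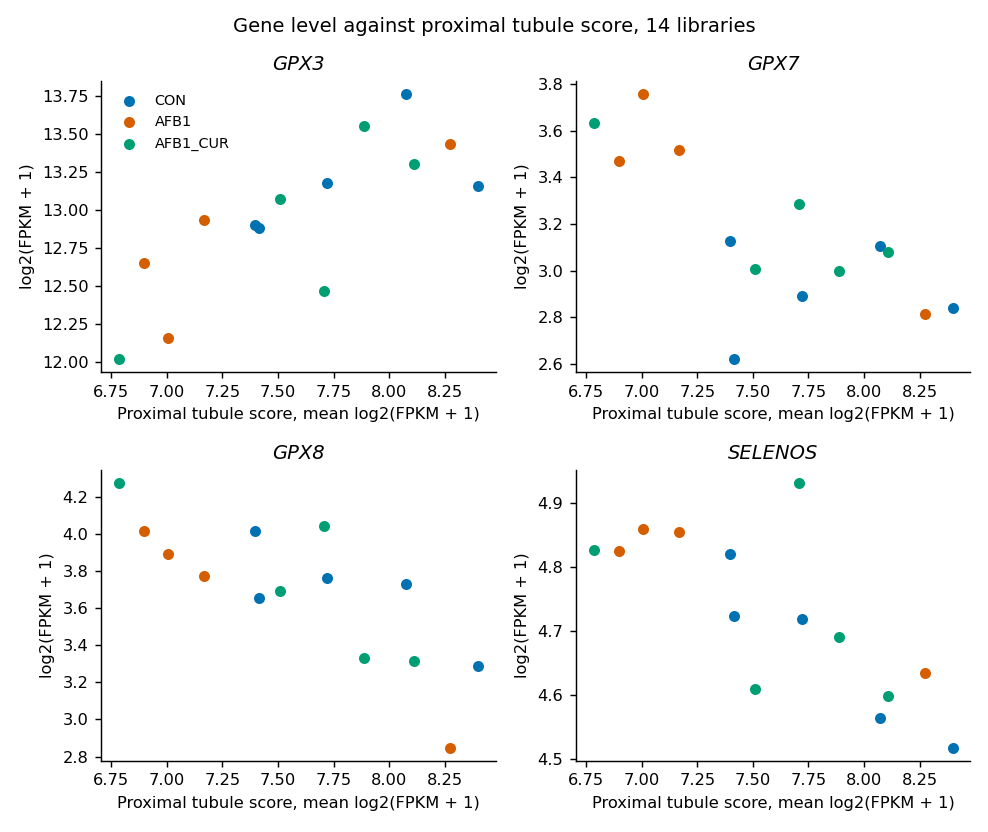
Level of GPX3, GPX7, GPX8 and SELENOS, as log2(FPKM + 1), against the proximal tubule score, the mean log2(FPKM + 1) of 8 marker genes, in 14 libraries coloured by group. GPX3 rises with the score (r = 0.79) and GPX7, GPX8 and SELENOS decline with it (r = -0.72, -0.80 and -0.76).

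The proximal tubule score itself differed among the AFB1 libraries. It was 7.40 to 8.40 in CON (median 7.72), 6.79 to 8.11 in AFB1_CUR (median 7.71) and 6.90 to 8.27 in AFB1 (median 7.09). AFB1 replicates 2, 3 and 4, at 7.01, 7.17 and 6.90, were below every CON library, and these were the 3 libraries with the high GPX7 values. AFB1 replicate 5, at 8.27, had the low GPX7 value and also the lowest GPX8 value of the 14 libraries. The part of the tubule score in the difference of GPX7 between AFB1 and CON was not tested.

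AFB1 replicate 2 and AFB1_CUR replicate 2 stood apart in a second way. Their lymphocyte score, over 4 marker genes, was 5.87 and 6.50, against 1.95 to 3.80 in the other 12 libraries. Other scores were also highest in these 2 among the 14: for macrophages 4.76 and 5.21 against 2.64 to 4.10, for fibroblasts 5.37 and 6.15 against 3.99 to 5.22, and for adipocytes 2.15 and 1.26 against 0.080 to 1.04. GPX4 stood at 221 and 265 FPKM in these 2 and at 339.5 to 495 in the other 12, and GPX3 at 4568 and 4162 against 5677 to 13888. GPX7 was higher in these 2, at 12.5 and 11.4 FPKM against 5.16 to 10.5. Over all 14 libraries, r with the lymphocyte score was -0.83 for GPX4 (permutation test, adjusted p = 0.0167), -0.77 for GPX3 (permutation test, adjusted p = 0.0126) and 0.70 for GPX7 (permutation test, adjusted p = 0.0167). Over the 12 other libraries it was -0.26, -0.36 and 0.30, so these 3 values of r rest on the 2 libraries. By rank, GPX3 had a rho of -0.71 (permutation test, adjusted p = 0.0250), GPX4 of -0.39 (permutation test, adjusted p = 0.277) and GPX7 of 0.51 (permutation test, adjusted p = 0.185). SELENOS had a rho of 0.74 (permutation test, adjusted p = 0.0250) and GPX8 of 0.66 (permutation test, adjusted p = 0.0498), while r was 0.58 and 0.60 (permutation test, adjusted p = 0.0601 for both). Over the 12 other libraries, r was 0.66 for SELENOS, 0.59 for SELENOW and 0.52 for GPX8. The part of these cell types in the levels, and in the difference of GPX7 between AFB1 and CON, was not tested. With the fibroblast score, over 6 marker genes, 0 of the 9 genes had an adjusted p under 0.05 in the permutation test, the smallest being 0.0601.

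In the library labelled AFB1 replicate 1 selenoprotein levels differed from those in the other 14. SELENOP, which the liver is known to secrete into plasma, was at 1369.7 FPKM, 5.17 times the median of the other 14 libraries, and was the highest of the selenoprotein genes with 45.6% of their summed FPKM. GPX3 was at 655 FPKM, 12.6-fold below the median, with 21.8% of the summed FPKM. GPX8 was at 1.06 FPKM, 11.7-fold below the median, and GPX4 at 117, 3.68-fold below. GPX1 at 137 and SELENOW at 94.8 FPKM lay just below the range of the others. SELENOS at 41.2 FPKM was above it, 1.62 times the median, while GPX7 at 9.77 and SELENOK at 2.92 were inside it. Thus 2 of 9 genes were above and 5 of 9 below the range of the 14 libraries, where 9.63% and 61.5% of all tested genes were. Of the other selenoprotein genes, MSRB1, a methionine sulphoxide reductase (81.1 FPKM against a highest value of 36.5), SEPHS2, which makes selenophosphate (224 against 119.9), and SELENOI, a phospholipid synthesis enzyme (8.54 against 3.92), were above the range. So were DIO3, which inactivates thyroid hormone (3.63 against 0.19), and GPX2, a peroxidase known from the gut (0.67 against 0.15), neither of which passed the filter on low values. TXNRD1, TXNRD2, SELENOF, SELENON and SELENOT were below the range, with SELENON at 4.74 FPKM against a lowest value of 12.5 and TXNRD1 at 7.63 against 16.4. The receptor LRP2 was at 0.0080 FPKM against 30.2 to 134. With no other library of this kind, these are values of 1 library without a replicate.

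**Figure D5:**
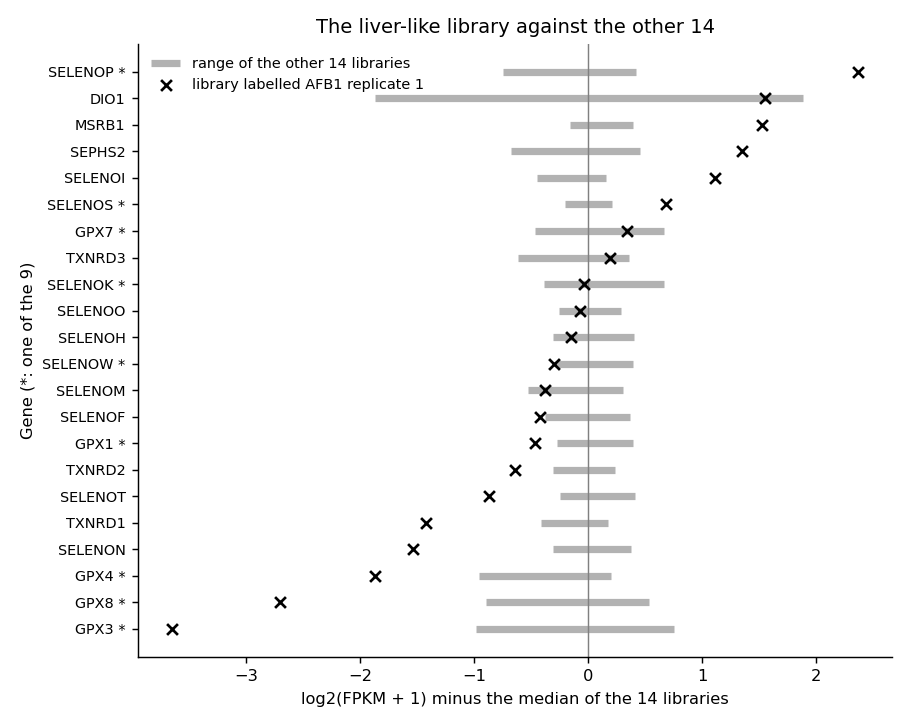
Selenoprotein genes and GPX7 and GPX8 in the library labelled AFB1 replicate 1 (crosses) against the range of the other 14 libraries (grey bars), as log2(FPKM + 1) minus the median of the 14. Of the 22 genes, 5 crosses lie above the bars, 10 below and 7 inside. SELENOP is farthest above and GPX3 farthest below.

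Genes whose pattern was most like that of the set were sought among all tested genes by Pearson's r of log2(FPKM + 1) over the 14 libraries, as a description without a test, since the libraries share differences in cell make-up. Closest to GPX3 were PDE8A (r = 0.92, rho = 0.87), a phosphodiesterase, HAO1 (r = 0.91, rho = 0.89), a peroxisomal hydroxyacid oxidase, and AGXT (r = 0.91, rho = 0.87), a peroxisomal aminotransferase. Closest to GPX8 was LZTS2 (r = 0.94, rho = 0.89), and closest to GPX4 was UROS (r = 0.92, rho = 0.58), an enzyme of haem synthesis. SELENOW was nearest to MRPL38 (r = 0.93, rho = 0.95), a mitochondrial ribosomal protein, and GPX1 to ERH (r = 0.89, rho = 0.91). SELENOS was nearest to SLC25A12 (r = 0.91, rho = 0.87), a mitochondrial carrier of aspartate and glutamate, and SELENOP to LRRCC1 (r = 0.84, rho = 0.89). GPX7 was nearest to LOC121817073 (r = 0.90, rho = 0.92), followed by TSPAN13 (r = 0.88, rho = 0.78). SELENOK was nearest to LOC105605457 (r = 0.77, rho = 0.57), the lowest top value of the set. Among the 9 genes themselves, the largest Pearson values were those of GPX1 with SELENOW (r = 0.77, rho = 0.66) and of GPX3 with SELENOS (r = -0.75, rho = -0.79), and the largest Spearman value was that of GPX7 with GPX8 (r = 0.64, rho = 0.80).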

How the data were processed

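Kidney mRNA was sequenced as paired reads from strand-marked libraries, and 5 libraries per group were deposited. Per the labels and methods, the authors removed adapters and low-quality reads and aligned the rest with HISAT2 2.2.1, and the submitters' processing notes also name Cutadapt 1.9, StringTie 2.1.6, DESeq2 and edgeR. For the read counting, neither tool nor strand setting was given in the sources used here. The authors deposited raw read counts and FPKM values (scaled by transcript length and library size) for each gene and library. The build is likewise unstated, but the start and end in the table equalled those of the RefSeq table for the current sheep assembly for 24848 of 24947 genes matched by symbol (99.6%), the 9 genes included, and are given as the file gives them. Groups and replicate numbers were taken from the sample titles. The sequences of the genes were not analysed here.

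Counts were tested with edgeR 4.0.16 (quasi-likelihood test, TMM, R 4.3.3) in 1 fit of 14 libraries and 3 groups, for 13162 genes that reached 1 FPKM in 5 or more libraries. These p-values were adjusted by the Benjamini-Hochberg method over all tested genes, and those of the correlations over 27 relations. A call needed both a p under 0.05 before adjustment and a change of more than 1.5-fold. The p-values measure the spread between the sheep sequenced. The fitting script was tested on simulated data. Alternatives were all 15 libraries, DESeq2 1.42.0, other size factors, no filter, limma 3.58.1 on log2(FPKM + 1) or log2(FPKM + 0.1), a replicate block, fits of the compared groups alone, each library left out in turn and, added later, 12 libraries. Whether replicate numbers pair the samples was not settled. Same-numbered libraries had deviations from their group means that correlated from -0.31 to 0.60, with 0.40, 0.44 and 0.60 for replicate 2. Libraries of different numbers were not compared in this way. The 9 genes and all gene lists were chosen with earlier results of these data known. Of the lists, genes were named that were called in a comparison, or otherwise the pair with the largest estimate between AFB1 and CON. VCP and ZDHHC6 were named after their values were seen. Correlations of gene levels and their permutation tests used NumPy 2.4.6, with ranks from SciPy 1.17.1. The highest correlation between any pair of libraries was 0.978, and none was a duplicate. Counts limit the precision of SELENOK (90 to 217 per library) and little else in the set.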

Additional observations from a re-analysis of the deposited data

Results flagged for a closer look

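Within groups of 5, 27 sets of values (9 genes in 3 groups) were searched for a library with a gap to its nearest neighbour of more than 0.71 of the group's range, which chance gives in about 1 in 20 groups. There were 3. GPX3 in CON replicate 4, at 13888 FPKM, had a gap of 0.727 of the CON range. SELENOP in the library labelled AFB1 replicate 1, at 1369.7 FPKM, had a gap of 0.879 of the AFB1 range, and SELENOS there, at 41.2 FPKM, one of 0.757.

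In that library, which took no part in the comparisons, 3 of the 9 genes were above every CON library, where 13.7% of all tested genes were. GPX7 was at 9.77 FPKM (highest CON value 7.74), SELENOP at 1369.7 (347) and SELENOS at 41.2 (27.3). Its hepatocyte score was 10.37 and its proximal tubule score 1.37, and their part in these levels was not tested.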

How the results depend on the processing

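The number of genes called moved by over 1.5 times with some settings. For AFB1 against CON, AFB1_CUR against AFB1 and AFB1_CUR against CON in turn, it was 639, 525 and 131 with all 15 libraries, 867, 707 and 928 without the filter (more genes tested), and 105, 81 and 80 with limma on log2(FPKM + 1). Without AFB1 replicate 2 and AFB1_CUR replicate 2, a setting chosen after the data were seen, it was 219 for the second and 124 for the third. Leaving out each library in turn gave 206 to 458 (highest without AFB1 replicate 5), 120 to 271 (highest without AFB1 replicate 2) and 123 to 312 (lowest without AFB1_CUR replicate 2). With the replicate block it was 228, 150 and 282, and the block changed no call among the 9 genes but ended that of DERL3 for AFB1 against CON (1.24, unadjusted p = 0.102, edgeR). Between AFB1 and CON, SELENOP (1.39) and GPX7 (0.71) were called with all 15 libraries. Signs that turned belonged to estimates that were not called. With all 15 libraries SELENOK was 0.011 for AFB1 against CON and GPX4 0.027 for AFB1_CUR against AFB1. For AFB1_CUR against CON, limma gave GPX8 0.042, SELENOW 0.0060 and SELENOS 0.063 with a pseudocount of 1, and 0.043, 0.0060 and 0.065 with 0.1. With the replicate block, GPX3 was -0.062 for AFB1_CUR against AFB1 and GPX8 0.0025 for AFB1_CUR against CON. In the 12 libraries GPX4 was 0.11 for AFB1 against CON, GPX8 -0.048 for AFB1_CUR against AFB1 and SELENOS 0.021 for AFB1_CUR against CON. The causes were not tested. Over the fits without a library, estimates for AFB1 against CON ranged from -0.22 to 0.10 for GPX4, -0.19 to 0.16 for GPX8, -0.0041 to 0.30 for SELENOP, -0.096 to 0.18 for SELENOW and -0.25 to 0.11 for SELENOK. For AFB1_CUR against AFB1 they ranged from -0.15 to 0.37 for GPX3, -0.17 to 0.18 for GPX8 and -0.25 to 0.029 for SELENOW. For AFB1_CUR against CON they ranged from -0.013 to 0.19 for GPX1, -0.13 to 0.082 for GPX8, -0.14 to 0.0054 for SELENOW and -0.057 to 0.035 for SELENOS.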

Other observations

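ALOX15, a lipoxygenase that oxidizes membrane lipids and is listed among the genes around GPX4, did not pass the filter on low values. It was at 7.28 FPKM in AFB1_CUR replicate 2 and at 0 to 0.076 FPKM in the other 14 libraries. SLC7A11, the cystine importer upstream of glutathione synthesis, was at most 0.092 FPKM in the 14 libraries.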
